A study of Canis lupus familiaris with 24 samples.

Results

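SELENOP, GPX1, PON2 and HSPB1 are 4 genes of redox and stress protection, described here in lymph node aspirates of pet dogs that had B-cell lymphoma, a tumour of B lymphocytes. They were picked by name with earlier results of these arrays known, because of how they differed between the drug-sensitive and the drug-resistant phase. Their changes between the phases are therefore given as a description, without a p-value. Every probe of the array whose RefSeq identifier belongs to 1 of the 4 genes was taken, which found all 4 genes on 8 of 43603 probes. SELENOP and GPX1 had 3 probes each, and PON2 and HSPB1 had 1 each. Probes of a gene are numbered from the brightest to the dimmest. All 8 lay well above background on all 24 arrays.

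Dog 1 was a male Shih Tzu of 10 years, dog 2 a male Doberman of 9 years, dog 3 a castrated male French Bulldog of 3 years and dog 4 a spayed female French Bulldog of 5 years. Each dog gave lymph node cells by fine-needle aspiration in the sensitive phase and in the resistant phase. The drugs are not given in the sources used here. Dog and phase define 8 groups, and each was measured on 3 single-colour arrays. Nothing states whether the 3 were separate aspirates, so the spread within a group, and every p-value within a dog that rests on it, may be technical only. An aspirate is a mixture of cells, and each phase of a dog is a single time of sampling.

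Selenoproteins carry selenium as the amino acid selenocysteine. SELENOP, selenoprotein P, is a secreted protein that carries selenium between tissues, and cells take it up through receptors of the LDL receptor family. GPX1, glutathione peroxidase 1, is a selenoenzyme of the cytosol and mitochondria that reduces hydrogen peroxide with glutathione. PON2, paraoxonase 2, is a lactonase inside cells that limits oxidative stress at mitochondria and the endoplasmic reticulum. HSPB1, also known as HSP27, is a small heat shock protein that holds unfolding proteins in solution and protects actin filaments and cells under stress.

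The share of an array's spots that exceeded background clearly ran from 71.0% to 80.9%, and the array's 75th percentile of signal from 676 to 1118. Levels are given as log2 of the processed signal minus the log2 of that percentile, so a level of 0 is the 75th percentile of the array. They compare 1 probe between samples, and are not set against the level of another probe. Across probes, the median r was 0.992 between arrays of the same group, 0.976 between phases of the same dog and 0.951 between dogs. Of 9 listed B cell markers, MS4A1 and CD40 were measured. Both were well above background on all 24 arrays, and neither was called in any dog. Arrays of dog 4 in the resistant phase shared a slide and scan day of their own, so in that dog the phase and the slide cannot be told apart.

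A probe was called within a dog where limma's test of the resistant against the sensitive arrays, run over 34548 probes, gave a Benjamini-Hochberg adjusted p under 0.05 and the change was at least 2-fold. Changes are in log2 units, resistant minus sensitive, with the standard error of the fit over the 24 arrays.

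SELENOP was lower in the resistant phase of all 4 dogs on each of its 3 probes. The difference was largest in dog 2, at 7.51-fold on probe 1, and smallest on that probe in dog 4, at 1.25-fold. In dog 1, the levels of probe 1 were 4.03, 4.02 and 3.98 on the sensitive arrays and 3.44, 3.32 and 3.28 on the resistant arrays. In dog 2 they were 2.52, 2.53 and 2.59, and then -0.38, -0.39 and -0.32. These resistant arrays of dog 2 were the lowest of all 24 and sat below the 75th percentile of their array. In dog 3 the levels were 3.37, 3.37 and 3.25 when sensitive and 1.69, 1.77 and 1.83 when resistant. In dog 4 they were 1.28, 1.27 and 1.37, and then 1.03, 0.98 and 0.93. The phases did not overlap in any of the dogs, and dog 4 was low already when sensitive.

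SELENOP probe 1 changed by -0.66, -2.91, -1.57 and -0.33 in dogs 1 to 4, each with an SE of 0.05. Its mean change was -1.37 with an SE of 0.58 (n = 4 dogs). Over all probes tested, 7.36% were lower in all 4 dogs, and 3.03% were lower in all 4 by 2-fold or more in the mean, as the 3 SELENOP probes were. Probe 2 changed by -0.52, -2.81, -1.33 and -0.55 in dogs 1 to 4 with an SE of 0.03. Probe 3 changed by -0.47, -2.96, -1.25 and -0.75 with an SE of 0.08. All 3 probes thus put dog 2 first and dog 3 second in the size of the change. Across the 24 arrays they correlated with each other at r of 0.972 to 0.996.

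The mean change of SELENOP depended on dog 2: without that dog it was -0.85 on probe 1, -0.80 on probe 2 and -0.82 on probe 3. Some slides held both phases of a dog, with 3 arrays of 1 phase and 1 of the other. Within such a slide the change of probe 1 was -0.57 in dog 1, -2.96 in dog 2 and -1.64 in dog 3, close to the values over all arrays. Ordered by mean level of probe 1, the groups ran from dog 1 sensitive at 4.01 ± 0.03 (SD, n = 3 arrays), dog 1 resistant at 3.35 ± 0.08 and dog 3 sensitive at 3.33 ± 0.07, which overlapped each other, to dog 2 sensitive at 2.55 ± 0.04. Then came dog 3 resistant at 1.76 ± 0.07, dog 4 sensitive at 1.31 ± 0.05, dog 4 resistant at 0.98 ± 0.05 and dog 2 resistant at -0.36 ± 0.04. The resistant arrays of dog 1 were thus above every sensitive array of dogs 2 and 4.

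GPX1 lay far above the 75th percentile on all arrays and differed between the phases by folds of 1.11, 1.19 and 1.14 on probe 1 in dogs 1, 3 and 4 and of 1.82 in dog 2. There the levels of probe 1 were 6.56, 6.57 and 6.45 on the sensitive arrays and 5.66, 5.68 and 5.65 on the resistant arrays. Both phases of dog 2 lay above every array of the other dogs. In dog 1 they were 4.95, 5.02 and 5.02 when sensitive and 5.09, 5.14 and 5.20 when resistant. In dog 3 they were 5.54, 5.54 and 5.46, and then 5.31, 5.27 and 5.22. In dog 4 they were 5.29, 5.16 and 5.08, and then 4.99, 5.00 and 4.98. The phases of each dog were separate on probe 1, with gaps in dogs 1 and 4 that were no larger than the range of 3 arrays of 1 phase.

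GPX1 probe 1 changed by 0.15, -0.87, -0.25 and -0.19 in dogs 1 to 4 with an SE of 0.05, and by a mean of -0.29 with an SE of 0.21 over the 4 dogs. Probe 2 changed by 0.12, -0.90, -0.26 and -0.14 with an SE of 0.03. Probe 3 changed by 0.07, -1.10, -0.18 and -0.04 with an SE of 0.04, and its phases overlapped in dogs 1 and 4. The small change in dog 1 had no stable sign, since on probe 1 it was -0.01 after quantile normalisation and -0.11 in the normexp setting, in which the raw median signal was background-corrected by normexp and then quantile-normalised. On probe 3 the change in dog 4 had no stable sign either. There it was 0.03 in the normexp setting and 0.01 in the authors' deposited table of raw signal. The 3 probes correlated at r of 0.982 to 0.992 over the 24 arrays. Without dog 2 the mean change was -0.10, -0.09 and -0.05 on the 3 probes. Within 1 slide the change in dog 2 was -0.79 on probe 1, -0.87 on probe 2 and -1.08 on probe 3.

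PON2 was lower in the resistant phase of dogs 1 and 2 and higher in that of dogs 3 and 4. In dog 1 its levels were -4.88, -4.94 and -5.11 when sensitive and -5.91, -5.67 and -6.09 when resistant. In dog 2 they were -2.87, -2.84 and -2.95, and then -4.00, -3.99 and -4.11. In these dogs every resistant array lay below every sensitive array. In dog 3 the levels were -4.51, -4.24 and -4.37 when sensitive and -2.60, -2.63 and -2.64 when resistant. In dog 4 they were -5.07, -4.89 and -5.30, and then -4.03, -4.01 and -3.93. The resistant arrays of dog 3 were the highest of all 24, above the sensitive arrays of dog 2.

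PON2 changed by -0.91 and -1.14 in dogs 1 and 2 and by 1.75 and 1.10 in dogs 3 and 4, with an SE of 0.10. These are folds of 1.88 and 2.21 lower and of 3.37 and 2.14 higher. The opposite signs gave a mean of 0.20 over the dogs with an SE of 0.72, which was 0.64 without dog 2, 0.57 without dog 1, -0.32 without dog 3 and -0.10 without dog 4. The PON2 probe was dim. Its processed signal ran from 12.7 to 146, and on the resistant arrays of dog 1 it lay only 0.35 to 1.34 log2 units above the dimmest probe counted as well above background. The size of its change differed between settings. In the normexp setting, which adds an offset of 50 and also changes the starting signal and the scaling, it was -0.12 and -0.52 in dogs 1 and 2 and 0.95 and 0.31 in dogs 3 and 4. In the authors' deposited table of raw signal it was -0.40 and -0.76 in dogs 1 and 2 and 1.13 and 0.56 in dogs 3 and 4. Within 1 slide it was -0.93 in dog 1, -1.08 in dog 2 and 1.77 in dog 3.

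HSPB1 was lower in the resistant phase of dog 2 by 7.02-fold, lower in dog 3 by 1.88-fold and higher in dog 1 by 1.99-fold. In dog 1 its levels were 1.89, 1.96 and 1.86 when sensitive and 2.89, 2.85 and 2.94 when resistant. In dog 2 they were 3.68, 3.66 and 3.50, and then 0.88, 0.78 and 0.75, so dog 2 held both the highest and the lowest arrays of this probe. In dog 3 they were 2.56, 2.54 and 2.65 when sensitive and 1.75, 1.63 and 1.63 when resistant. In dog 4 they were 1.80, 1.89 and 1.73, and then 1.65, 1.70 and 1.70. The phases did not overlap in any dog, although in dog 4 the nearest arrays of the phases were 1.73 and 1.70.

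HSPB1 changed by 0.99, -2.81, -0.91 and -0.12 in dogs 1 to 4, with an SE of 0.05. In dog 4 the sign was not stable, at 0.04 both in the normexp setting and in that table of raw signal. Within 1 slide it was 0.99 in dog 1, -2.70 in dog 2 and -0.84 in dog 3. The mean over the 4 dogs was -0.71 with an SE of 0.80, was -0.02 without dog 2 and was -1.28 without dog 1. By mean level, dog 2 sensitive came first at 3.61, then dog 1 resistant at 2.89, dog 3 sensitive at 2.58 and dog 1 sensitive at 1.90, whose arrays overlapped those of dog 4 sensitive at 1.81. Dog 4 resistant at 1.68 and dog 3 resistant at 1.67 overlapped too, and dog 2 resistant was lowest at 0.80.

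Dog 2 had the most called probes of the 4 genes and dog 1 had none. In dog 2, 6 of the 8 probes were called lower: all 3 of SELENOP, GPX1 probe 3, PON2 and HSPB1. Of all probes tested, 10.1% were called lower and 3.53% higher in that dog. In dog 3, the 3 SELENOP probes were called lower, against 5.45% of all probes, and PON2 was called higher, against 1.28%. In dog 4, PON2 alone was called, higher, against 3.77% of all probes, while 0 of 8 were called lower, against 1.57%. In dog 1, 0 of 8 were called, against 3.56% of all probes called higher and 7.75% called lower. PON2 was the gene called in opposite directions in different dogs, as were 3.56% of all probes in at least 2 dogs. Since the genes were chosen on these contrasts, nothing is read from these shares.

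At the edge of the 2-fold limit lay GPX1 in dog 2, with probe 3 inside at -1.10 and probe 2 outside at -0.90. HSPB1 in dog 1, at 0.99, lay just outside. GPX1 probes 1 and 2 in dog 2 came inside, at -1.13 and -1.18 after quantile normalisation and at -1.12 and -1.17 in the normexp setting. PON2 in dog 4 was inside at 1.10 and fell outside after quantile normalisation (0.95), in the authors' deposited table of raw signal (0.56) and without sensitive array 3 of dog 4 (0.99). PON2 in dog 2 fell outside after quantile normalisation (-0.99) and in that table (-0.76). With each array scaled to its median, GPX1 probe 3 and PON2 in dog 2 lay at -0.96 and -0.999, outside the limit, and HSPB1 in dog 1 was called at 1.17. Of the 8 probes, the number called lower in dog 2 was thus 6, and 4 with median scaling, 5 in the authors' table and 7 with quantile normalisation or in the normexp setting.

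The arrays of the phases were fully apart for most of the 8 probes. In dog 1, 3 probes were higher without overlap (29.7% of all probes tested) and 4 lower (33.5%). In dog 2, 8 were lower (27.6%) and 0 higher (42.8%). In dog 3, 1 was higher (31.2%) and 7 were lower (26.3%). In dog 4, 1 was higher (32.1%) and 6 were lower (25%). A gap between 3 arrays and 3 was thus common on these arrays. The median change of the 8 probes was -0.20, -1.98, -0.58 and -0.17, beside a median of all probes of -0.05, 0.10, 0.03 and 0.05. In the test across dogs, with the dog as the replicate, 0 of 34548 probes passed an adjusted p of 0.05 in limma, 2122 had an unadjusted p under 0.05, and the lowest adjusted p of any probe was 0.348.

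The 4 genes did not share an order of levels over the groups. Over the 8 group means, as a description, r was 0.66 between SELENOP and HSPB1, 0.55 between GPX1 and PON2, and 0.51 between GPX1 and HSPB1. It was -0.08 between SELENOP and GPX1 and -0.33 between SELENOP and PON2. Both phases of a dog share the animal, so the 8 points are not independent.

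Whether the dogs differed in mean level over both phases is another question than the change between the phases, on which the genes were chosen. The mean of SELENOP probe 1 over both phases was 3.68, 1.09, 2.55 and 1.14 in dogs 1 to 4. That of GPX1 probe 1 was 5.07, 6.09, 5.39 and 5.08. That of PON2 was -5.43, -3.46, -3.50 and -4.54. HSPB1 varied least, at 2.40, 2.21, 2.13 and 1.74. Dog 1 was thus highest for SELENOP and lowest for PON2, and dog 2 was highest for GPX1.

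None of these differences between dogs passed the test. The limma F-test on the 8 group means, with Benjamini-Hochberg adjustment over all probes, gave an adjusted p of 0.125, 0.115 and 0.101 for the SELENOP probes and of 0.151, 0.172 and 0.205 for the GPX1 probes. PON2 gave 0.294 and HSPB1 0.914. The spread in this test is how the phase change differed between dogs, and the genes were chosen on those changes. The test is thus not independent of the choice, and a large adjusted p does not show that the dogs were alike. Over the alternatives the adjusted p of SELENOP ran from 0.0502 to 0.341, that of GPX1 from 0.0753 to 0.548, that of PON2 from 0.213 to 0.497 and that of HSPB1 from 0.636 to 0.975. Over all probes, 5.97% passed the adjusted threshold, beside 0 of the 8. Before adjustment, 4 of the 8 probes had a p under 0.05, and so had 10268 of the 34548 probes tested.

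The pathways of the 4 genes were covered in part. Of 112 listed selenoproteins, glutathione peroxidases, antioxidant enzymes, glutathione and NRF2 target genes, paraoxonases, heat shock proteins and chaperones, 26 were measured under a gene name. These were 13 of 30 in the selenoprotein and glutathione peroxidase list, 5 of 19 in the thioredoxin, peroxiredoxin and superoxide list, 2 of 26 in the glutathione and NRF2 list and 6 of 35 in the heat shock and chaperone list. The other paraoxonases, PON1 and PON3, were not analysed here. The brightest probe stood for each gene, and the median change of the 26 genes was 0.08, 0.04, -0.05 and 0.14 in dogs 1 to 4.

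Few of them were called in limma's within-dog test. In dog 1, 0 were called higher and 2 lower, in dog 2, 0 and 1, in dog 3, 0 and 2, and in dog 4, 1 and 0. MT2A, a metallothionein that binds zinc and copper, was 2.90-fold lower in the resistant phase of dog 1 (-1.54, SE 0.24) and 3.84-fold lower in dog 3 (-1.94), and stood at -0.17 in dog 2 and -0.40 in dog 4. TXNRD3, a selenoenzyme of the thioredoxin reductase family, was 4.75-fold lower in dog 2 (-2.25, SE 0.10). It stood at -0.20, -0.75 and -0.63 in dogs 1, 3 and 4, and its other probe at -0.63, -3.25, -1.03 and 0.71 in dogs 1 to 4. SELENOM, a selenoprotein of the endoplasmic reticulum, was 2.51-fold lower in dog 3 (-1.33, SE 0.09) and stood at -0.77, -0.61 and 0.30 in dogs 1, 2 and 4. Its other probe stood at -1.25, -0.99, -1.26 and 0.86 in dogs 1 to 4, and was called lower in dogs 1 and 3.

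The remaining calls were at the background. DIO2, a deiodinase that activates thyroid hormone, was called lower in dog 1, where none of its spots in either phase was well above background. DIO1, also a deiodinase, was called higher in dog 4, where 0 of 3 sensitive and 2 of 3 resistant arrays were well above background. No fold is given for either.

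Over the 26 genes, 4 were higher in all 4 dogs (15.4%, beside 8.9% of all probes) and 2 were lower in all 4 (7.69%, beside 7.36%). The 4 were SELENOK, SELENOF, CYBA and HSPA4, and the 2 were TXNRD3 and MT2A. These and the next genes were named after their values were seen. Enzymes against superoxide and hydrogen peroxide stood within 2-fold of no change: SOD1, the cytosolic superoxide dismutase, at 0.01, 0.53, 0.03 and -0.05, and CAT, catalase, at 0.00, -0.21, 0.18 and -0.25 in dogs 1 to 4. Of the chaperones, HSP70 stood at 0.92, -0.63, -0.43 and 0.79. HSP90B1, the HSP90 of the endoplasmic reticulum, stood at 0.85, 0.17, -0.09 and 0.21. None of these 4 was called in any dog.

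**Figure D1:**
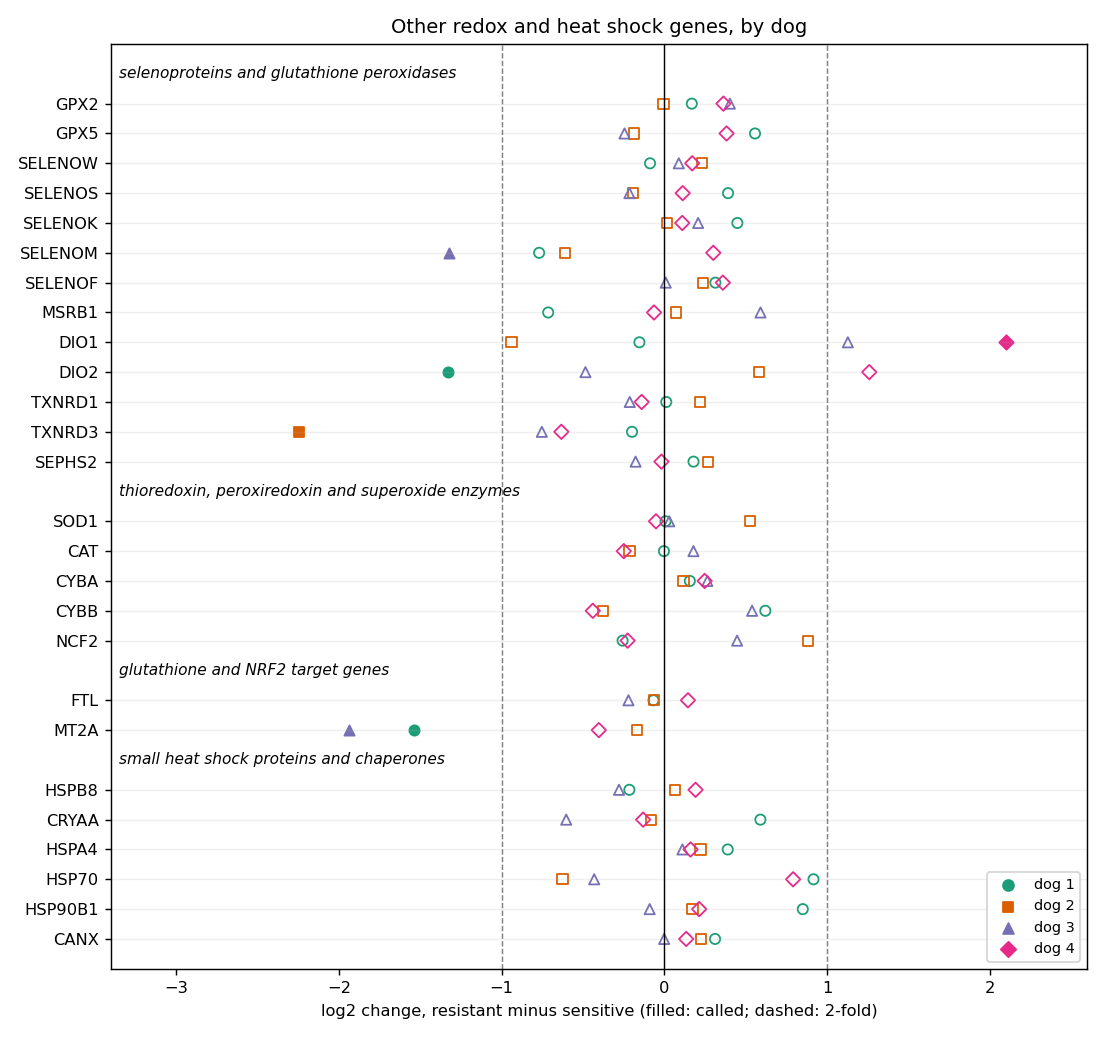
Change between the phases of the 26 measured genes of the redox and heat shock lists in each dog, in log2 units (resistant minus sensitive), 1 point per dog (brightest probe), filled where called. Most points lie within 2-fold of no change, while TXNRD3 stands at -2.25 in dog 2 and MT2A at -1.94 in dog 3. The filled points of DIO2 in dog 1 and DIO1 in dog 4 rest on spots at the background.

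Among 717 other genes with a name, the 3 whose brightest probe was most like each of the 4 over the 8 group means are given as a description, by Pearson's r. For SELENOP these were GLUL (r = 0.93), the enzyme that makes glutamine, B4GALT4 (0.93), a galactosyltransferase, and EPB41 (0.89), a membrane skeleton protein. GLUL was lower in the resistant phase of all 4 dogs, by -0.62, -1.65, -0.56 and -0.41. B4GALT4 was well above background on 0 of 3 arrays in 4 of the 8 groups, so its likeness rests in part on levels at the background, and no change is given for dogs 2, 3 and 4. In dog 1 it changed by 0.65, while its other probe changed by -2.00, so the probes of that gene disagree.

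For GPX1 the 3 were CTSD (0.96), a lysosomal protease, IDS (0.94), a lysosomal sulfatase, and TXNRD3 (0.94). CTSD changed by -0.18, -2.25, -0.29 and -0.03, and in its levels, as in those of GPX1, the sensitive arrays of dog 2 stood above the rest. For PON2 they were CTSA (0.86), a lysosomal carboxypeptidase, DLA-DRA (0.85), the alpha chain of the dog class II histocompatibility molecule DR, and PTGFR (0.84), the receptor of prostaglandin F, which was well above background on all 3 arrays in only 1 of the 8 groups. CTSA changed by -0.29, -0.67, 0.22 and -0.08. Its other probes stood at 0.25, 0.17 and 0.19 in dog 4 and at -0.13, -0.05 and 0.21 in dog 1. The sign in these dogs thus differed between probes of CTSA. For HSPB1 they were KLRA1 (0.88), a lectin-like receptor of natural killer cells, CXCL10 (0.88), a chemokine that draws T cells, and P2RX7 (0.88), a receptor of extracellular ATP. CXCL10 changed by 2.88, -8.40, 0.08 and -0.16 (in dog 2, 2 of 3 resistant arrays were well above background), with HSPB1 higher in dog 1 and lower in dog 2 as well.

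Other cell types of the aspirate moved with the phases too. In a mixture of cells, fewer cells of a type and less RNA per cell cannot be told apart. Levels of a marker list are summed signals over the array's 75th percentile. The summed level of 6 of 7 listed fibroblast and stroma markers was lower in the resistant phase of all 4 dogs. It ran from 2.22 to 2.24 on sensitive and from 0.481 to 0.497 on resistant arrays of dog 1, from 6.99 to 7.38 and then 2.48 to 2.76 in dog 2, from 10.5 to 11.1 and then 3.99 to 4.20 in dog 3, and from 4.07 to 4.67 and then 2.94 to 3.07 in dog 4. On the sensitive arrays the sum was mostly COL1A2. Of the 6 markers, 3 were lower in all 4 dogs: COL1A1, COL1A2 and CXCL12. PDGFRB stood at 0.25, -0.05, 0.01 and -0.19, BGN at -0.04, -0.14, -0.45 and 0.03, and DCN was higher by 0.12 in dog 4.

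Markers of other cells moved as well. KLRD1, the 1 measured of 5 natural killer cell markers, was called lower in dogs 1, 2 and 3 and stood at -1.56, -6.42, -1.48 and -0.03, with 2 of 3 resistant arrays of dog 2 well above background. KDR, an endothelial receptor, was called lower in dogs 1, 2 and 3, and stood at -2.08, -2.91 and 0.33 in dogs 2, 3 and 4. Of the resistant arrays of dog 1, 0 of 3 showed it well above background. VWF, the other endothelial marker measured, stood at -0.21, 0.15, -0.40 and 0.17 in dogs 1 to 4 and was not called in any dog. The summed level of 4 of 8 neutrophil markers was 2.16 to 2.35 when sensitive and 0.239 to 0.296 when resistant in dog 1, and 0.0922 to 0.144 and then 1.09 to 1.13 in dog 2. It was 3.17 to 3.27 and then 0.121 to 0.159 in dog 3, and 0.479 to 0.591 and then 0.429 to 0.449 in dog 4. The neutrophil marker CAMP stood at -5.46, 4.49, -5.41 and -0.38, and MMP9 at -1.97, 2.52, -4.91 and -0.22. Both were called higher in the resistant phase of dog 2. CXCR2 stood at -2.17, 1.05, 0.00 and 0.33 and was called only in dog 1, lower. ELANE stood at 1.44, 0.07, -2.11 and 0.44, so these markers did not all move together. In dog 1 ELANE was called higher, with 1 of 3 sensitive arrays well above background.

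The summed level of 5 of 9 T cell markers fell in dog 2, where all 5 were called lower, from 4.41 to 4.65 on sensitive to 0.273 to 0.284 on resistant arrays. In dog 1 it was 0.394 to 0.459 and then 0.248 to 0.275, in dog 3 it was 0.482 to 0.527 and then 0.315 to 0.429, and in dog 4 it was 0.350 to 0.415 and then 0.502 to 0.537. Of these markers CD28 and ICOS were well above background on 0 of 3 resistant arrays of dog 2. The T cell sum was highest in the group in which GPX1 and HSPB1 were highest, dog 2 sensitive. The next highest group was dog 2 resistant for GPX1 and dog 1 resistant for HSPB1. There the T cell sum was 0.273 to 0.284 and 0.248 to 0.275.

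Of 13 macrophage markers CD163 alone was measured. Its level was 0.446 to 0.455 and then 0.633 to 0.665 in dog 1, 0.124 to 0.132 and then 0.0768 to 0.078 in dog 2, 0.156 to 0.162 and then 0.0601 to 0.0684 in dog 3, and 0.0223 to 0.028 and then 0.0312 to 0.0328 in dog 4. CD163 was thus higher when resistant in dogs 1 and 4 and lower in dogs 2 and 3. SELENOP was lower in all 4 dogs, so both fell in dogs 2 and 3 and parted in dogs 1 and 4. The levels of CD163 were highest in dog 1, as was the mean of SELENOP over both phases. The summed B cell markers, mostly CD40, lay between 54.7 and 82.7 on all arrays. MS4A1 stood at -0.29, 0.16, 0.21 and -0.28 in dogs 1 to 4, and CD40 at 0.35, 0.07, 0.22 and 0.04. The part of these other cells in the levels of SELENOP, GPX1, PON2 and HSPB1 was not tested.

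**Figure D2:**
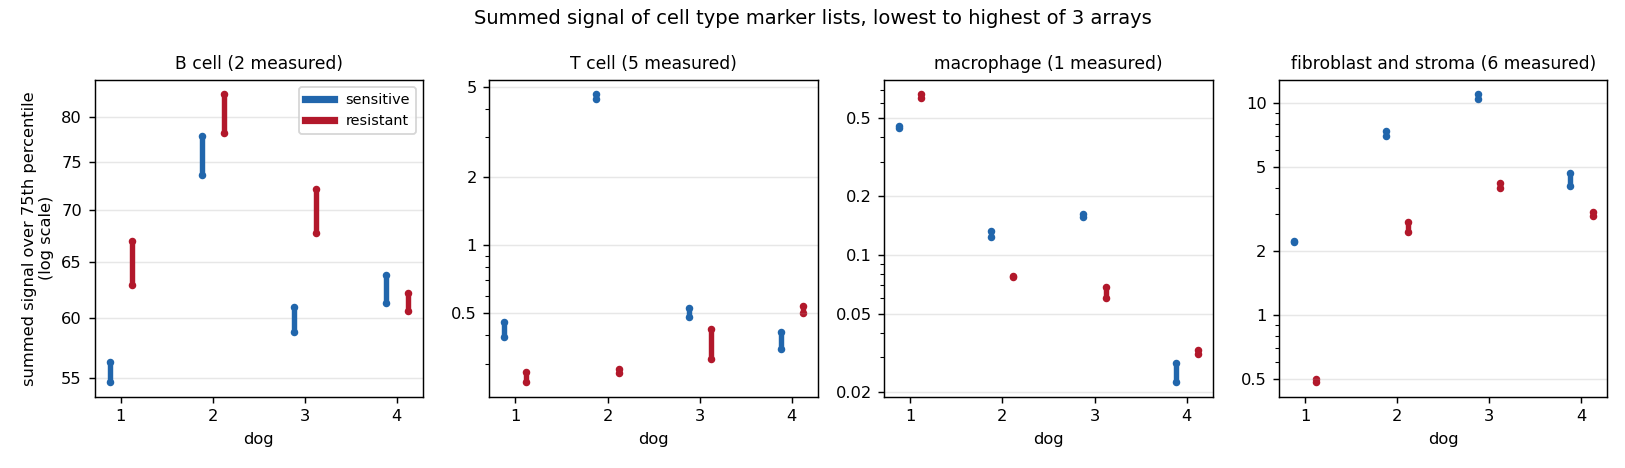
Summed signal of the measured markers of B cells, T cells, macrophages and fibroblasts or stroma over the array's 75th percentile (vertical log axis), by dog and phase; each bar spans the lowest to the highest of 3 arrays. The stroma sum, mostly COL1A2 on the sensitive arrays, lay lower in the resistant phase of all 4 dogs. The T cell sum in dog 2 fell from between 4.41 and 4.65 to between 0.273 and 0.284.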

How the data were processed

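The arrays were single-colour Agilent arrays of lymph node aspirates, 24 in 8 groups of dog and phase taken from the sample titles. The authors deposited spot intensity from Agilent Feature Extraction 10.7.3.1, per the file headers. Its processed signal was already background-subtracted within the array and not normalised between arrays. The authors' deposited value table equalled the raw median intensity on 24 of 24 arrays (largest difference 0). That table is thus linear, uncentred and without that background subtraction, with column medians of 97 to 141. Their genome build: not stated in the sources used here.

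Values here are log2 of the processed signal minus the array's 75th percentile, without control spots (1417 of 45220) and outlier spots (6 to 195 an array); 0 were saturated. Probes were tested if some group had all 3 arrays well above background (34548, after 3 with no value in a group were left out). Names came from a RefSeq table of UU_Cfam_GSD_1.0, which matched 832 of 35908 identifiers.

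The fits used limma 3.58.1 in R 4.3.3: 24 arrays in 8 groups within dogs, and, across dogs, 8 group means with dog as the blocking factor. Scripts were tested on simulated data. The normexp setting (offset 50, then quantile normalisation) used the median signal, since the mean signal planned for it was not used here. Slides and scans coincide, and 7 slides were used. Other alternatives were median scaling, quantile normalisation, the authors' table, other filters, slide and replicate blocks, and leaving out an array or a dog.

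The 4 genes, the gene lists and the tests were chosen with earlier results of these data known. Named genes were the 4 genes, the 3 most alike in level to each, and up to 3 called genes of each list and dog with the largest change; exceptions are stated beside them.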

Additional observations from a re-analysis of the deposited data

Results flagged for a closer look

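GPX1 probes 1 and 2, PON2 and HSPB1 differed between dogs in the direction of their change, with arrays of the phases that did not overlap in any dog. For GPX1 this rests on dog 1, where probe 3 overlapped and the sign was not stable (-0.11 on probe 1 in the normexp setting). The difference between dogs was not tested, since the genes were chosen on these changes. GPX1 probe 1 changed by 0.15 in dog 1 and by -0.87, -0.25 and -0.19 in dogs 2 to 4, and probe 2 by 0.12 and then -0.90, -0.26 and -0.14. PON2 changed by -0.91 and -1.14 in dogs 1 and 2 and by 1.75 and 1.10 in dogs 3 and 4. HSPB1 changed by 0.99 in dog 1 and by -2.81, -0.91 and -0.12 in dogs 2 to 4. Over all probes, 3.56% were called in opposite directions in at least 2 dogs, and of these 4 probes only PON2 was. Phases without overlap were far more common. In single dogs, 29.7% to 42.8% of all probes were higher without overlap and 25% to 33.5% lower. The share of all probes apart in every dog with differing signs was not counted.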

How the results depend on the processing

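No change of the 8 probes that was called reversed its sign under any alternative tried. SELENOP kept its direction in all 4 dogs, and its calls in dogs 2 and 3, wherever they were estimated. The slide block and the comparison within 1 slide gave no value for dog 4, since no slide held both of its phases. With each array scaled to its median, which moved the median change of all probes in dogs 1 and 2 from -0.05 and 0.10 to 0.13 and 0.25, 1 probe of the 4 genes was called higher in dog 1, and 2 listed genes were called higher in dog 1 and 1 in dog 2. Listed genes called lower in dog 1 numbered 1 instead of 2 under median scaling, quantile normalisation, the normexp setting, the authors' table, no filter, the filter on all arrays, the slide blocks and the comparison within 1 slide. Probes of the 4 genes called higher in dog 4 numbered 0 under quantile normalisation, normexp and the authors' table, and in dog 3 they numbered 0 under normexp. Listed genes called lower in dog 3 numbered 1 under normexp, the slide block and within 1 slide. Those called higher in dog 4 numbered 0 under normexp, the authors' table, the filter on all arrays and the random slide block. With only the brightest probe of each gene, 3 of the 4 genes were called lower in dog 2 and 1 in dog 3, since fewer probes enter. With 24 arrays and the group as a random block, 3 of the 8 probes were called across dogs, instead of 0, and so were 2186 of 34548 over all probes. That fit counts 24 arrays that may be technical repeats, while the replicates are 4 dogs. The genes were also chosen on this contrast, so nothing is read from its calls. Beyond the reasons given here, the cause of these shifts was not tested.

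Leaving out 1 array in turn, probes of the 4 genes called higher numbered 0 to 1 in dogs 1 and 4, and those called lower in dog 1 numbered 0 to 1. Listed genes called lower in dog 1 numbered 1 to 2, and those called higher numbered 1 to 2 in dog 4 and 0 to 1 in dog 3. HSPB1 in dog 1 was called without sensitive array 2 (1.02) or resistant array 2 (1.01), and PON2 in dog 1 without resistant array 2 (-1.02). Calls of dog differences over all probes numbered 2064, and 995, 265, 430 and 367 without dogs 1 to 4, and ran from 1343 to 4463 under the other alternatives. Over all probes, calls higher in dogs 1 to 4 numbered 1229, 1221, 443 and 1304, with 392, 341, 77 and 87 under normexp, and calls lower numbered 2677, 3477, 1884 and 541, with 609, 1527, 626 and 132. Under the other settings with all arrays they reached at most 1800, 1833, 598 and 2416 higher and 3017, 3693, 2051 and 882 lower. Without resistant array 1 of dog 3, 886 probes were called higher in that dog.

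The replicate numbers did not pair the arrays: deviations of arrays with the same number correlated at -0.12 to 0.09. The replicate block changed no call of the 8 probes, and called 1 listed gene lower in dog 1. The random slide block, chosen after seeing the data, left PON2 in dog 4 at 1.11. No slide held both phases of dog 4, so this block could not separate slide from phase there. The dim signal of PON2 and the small number of dogs, 4, limit the precision, and in dog 4 phase and slide cannot be told apart.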
